A study of Homo sapiens with 9 samples.

Results

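ELAVL2, ELAVL3, ELAVL4, PNMA1, PNMA2, BEX1, UCHL1 and STMN2 are genes best known from neurons, and their messenger RNA was measured in ovarian cancer cells that carry the label sensitive or resistant to cisplatin. The 8 genes were picked by name, with the measured differences between the groups known, so their values are given as a description, with no p-value. All 8 were found among the 43424 gene rows. A filter on low values, 1 CPM of the column total in at least 3 of 9 libraries, kept 14233 genes, and 7 of the 8 passed it; ELAVL2 did not. Because some genes pass such a filter only through the group in which they are high, no count over these 7 is read as support.

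The libraries fall into 3 groups of 3. OV90CisR1 and OV90CisR2 are lines labelled resistant and kept in MCDB-105 medium to which cisplatin had been added, and OV90 is the line labelled sensitive, kept in MCDB-105 medium with 15% serum and no cisplatin stated. Resistance and exposure to the drug therefore cannot be told apart, and each resistant line is a single line. The labels do not state whether the replicates of a line were grown apart, and the p-values reflect library-to-library spread only, which may be technical. RNA was sequenced from the 3' end of transcripts. In such bulk RNA, fewer cells that express a gene and less RNA per cell cannot be told apart.

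Neurons express the Hu proteins encoded by ELAVL2, ELAVL3 and ELAVL4, which bind AU-rich and U-rich stretches of messenger RNA and affect its stability and splicing; their relative ELAVL1 (HuR) is found in nearly all cells. The Hu proteins and the Ma proteins PNMA1 and PNMA2 are antigens of paraneoplastic neurological disease, in which a tumour outside the nervous system makes a neuronal protein and provokes antibodies against it. BEX1 belongs to a family of small brain-expressed X-linked proteins, UCHL1 (PGP9.5) is a ubiquitin C-terminal hydrolase abundant in neurons, and STMN2 (SCG10) destabilises microtubules in growth cones. In cells other than neurons, many neuronal genes are kept silent by the repressor REST with its partners RCOR1, SIN3A and histone deacetylases.

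The upstream sequences of BEX1 and UCHL1 are shown because each of these genes had a single upstream window in the sequences used here. Only 4 of the 8 genes had any such window. Each line gives the 250 bases before the annotated transcription start, 5' to 3' on the gene's own strand, from RefSeq on GRCh38.p14, with every CG dinucleotide in capitals. The BEX1 window is chrX:103064172-103064421 on the minus strand and the UCHL1 window is chr4:41256678-41256927 on the plus strand.
BEX1: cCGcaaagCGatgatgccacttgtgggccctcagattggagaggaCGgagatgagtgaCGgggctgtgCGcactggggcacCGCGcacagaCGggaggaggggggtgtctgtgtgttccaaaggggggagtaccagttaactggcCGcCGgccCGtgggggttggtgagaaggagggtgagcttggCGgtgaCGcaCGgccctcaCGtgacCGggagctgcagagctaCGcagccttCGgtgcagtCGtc
UCHL1: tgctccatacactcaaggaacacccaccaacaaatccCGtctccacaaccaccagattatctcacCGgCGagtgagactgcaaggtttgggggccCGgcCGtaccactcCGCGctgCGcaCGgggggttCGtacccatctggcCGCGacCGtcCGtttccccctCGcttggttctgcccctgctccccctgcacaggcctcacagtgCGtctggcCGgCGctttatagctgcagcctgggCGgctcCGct
The BEX1 window had a GC content of 65.6% and 19 CG dinucleotides, and the UCHL1 window had 64.4% and 20. Over all 35116 windows of this length in the RefSeq table the medians were 58.0% and 11. After these sequences had been seen, 4 short words were searched on both strands: CAGCACC and GGACAGC, parts of the element that REST binds, and the E-box words CAGCTG and CACGTG. No word overlapped another in these windows. The BEX1 window held CACGTG once, from 47 to 42 bases before the start. This word was in 6.34% of all windows and in 8.20% of those of tested genes. The UCHL1 window held none of the words. CAGCACC was in 6.16% of all windows, GGACAGC in 4.76% and CAGCTG in 13.99%. Among windows of tested genes these shares were 6.05%, 5.21% and 12.94%. A match is a description of letters only. ELAVL2 had 6 windows in the table, 1 with CAGCTG, and ELAVL4 had 7, of which 2 held CAGCTG.

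The libraries held between 5825708 and 7607679 reads, and 3 reads corresponded to between 2.62 and 3.37 normalised reads, the unit of all levels here. Libraries of a group correlated at 0.978 to 0.982 on the log2 scale in OV90CisR2. OV90CisR1 replicate 3 correlated with its group at 0.941 and 0.942, against 0.980 between the other 2, and OV90 replicate 3 at 0.955 and 0.957, against 0.979. Where leaving out 1 of these 2 libraries moved a called difference of a named gene by over 1.5 times, the value without it is given beside the result. Of 13 markers of ovarian carcinoma only EPCAM and KRT8 passed the filter. The sum of the 13 was between 69.2 and 112 normalised reads in OV90CisR1 and between 107 and 127 in OV90CisR2, against 50.4 to 76.5 in OV90. KRT8 rose by 3.32 on the log2 scale in OV90CisR2 against OV90 (limma adjusted p under 0.05). That call was lost (0.055 to 0.17) without any library other than OV90 replicate 3 and OV90CisR1 replicate 3. PAX8 and MUC16 had 0 reads in OV90 and at most 1 read in either resistant line, so these defining markers of the labelled cell type were absent or nearly so.

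**Figure D1:**
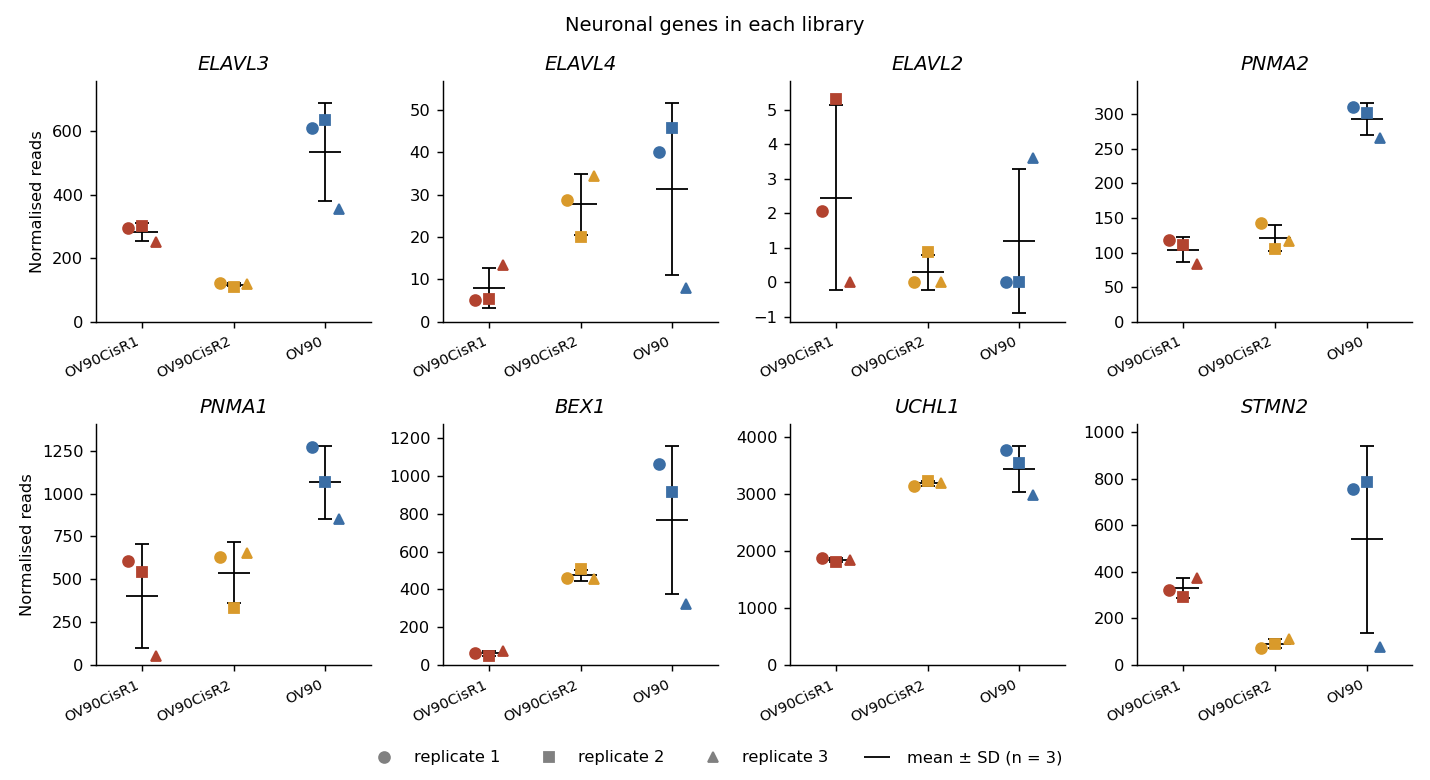
Normalised reads of the 8 genes (y axis, linear, a separate scale for each gene) in the libraries of OV90CisR1, OV90CisR2 and OV90 (x axis); each point is a library, its shape gives the replicate, and the bar with caps is the mean ± SD of 3 libraries. ELAVL3, PNMA1 and PNMA2 were lower in all 6 resistant libraries than in any OV90 library, while OV90 replicate 3 (triangle) lay far below the other OV90 libraries for ELAVL4, BEX1 and STMN2.

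ELAVL3 (HuC; chromosome 19, 11451326 to 11481046 on GRCh38.p14) was lower in both resistant lines, more so in OV90CisR2. It had 294, 303 and 252 normalised reads in OV90CisR1 replicates 1 to 3 and 123, 111 and 119 in OV90CisR2, against 612, 637 and 357 in OV90. The 3 groups did not overlap in any pair, and OV90 replicate 3 was the lowest OV90 library. The means were 283 ± 27.6 in OV90CisR1, 118 ± 5.95 in OV90CisR2 and 535 ± 155 in OV90 (SD, n = 3 each). On the log2(value + 1) scale the difference was -0.87 ± 0.21 (SE) in OV90CisR1 against OV90, -2.13 ± 0.21 in OV90CisR2 against OV90 and -1.26 ± 0.21 in OV90CisR2 against OV90CisR1. Both differences from OV90 use the same OV90 libraries. In OV90CisR2 this placed ELAVL3 at position 25 among 14233 genes ordered from the lowest difference. Without OV90 replicate 3 the differences from OV90 were -1.14 in OV90CisR1 and -2.40 in OV90CisR2.

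ELAVL4 (HuD; chromosome 1, 50048055 to 50203772) followed another order and was lowest in OV90CisR1. It had 5.17, 5.30 and 13.5 normalised reads in OV90CisR1 and 28.7, 20.1 and 34.3 in OV90CisR2, against 40.1, 45.7 and 8.09 in OV90. OV90CisR2 lay above OV90CisR1 without overlap, whereas OV90 replicate 3 lay within the range of OV90CisR1 and the other OV90 libraries lay above every resistant library. The means were 7.98 ± 4.76 in OV90CisR1, 27.7 ± 7.14 in OV90CisR2 and 31.3 ± 20.3 in OV90 (SD, n = 3 each). The log2 difference from OV90 was -1.65 ± 0.60 in OV90CisR1 and 0.11 ± 0.60 in OV90CisR2, and OV90CisR2 differed from OV90CisR1 by 1.77 ± 0.60. In OV90CisR2 the mean lay below that of OV90 while the log2 difference lay above 0, so the sign depended on the scale. Without OV90 replicate 3 the differences from OV90 were -2.41 in OV90CisR1 and -0.64 in OV90CisR2. The sign in OV90CisR2 also turned, to -0.05, without replicate 3 of that line. ELAVL2 (HuB; chromosome 9, 23690104 to 23850601) was at or near the detection limit, with 7 reads over the OV90CisR1 libraries, 1 over OV90CisR2 and 4 over OV90. Its values were 2.07, 5.30 and 0 normalised reads in OV90CisR1 and 0, 0.87 and 0 in OV90CisR2, against 0, 0 and 3.60 in OV90, which gives no basis for a comparison at this depth.

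ELAVL1, the paralog found in most cells, is no member and was tested with all genes. It averaged 528 ± 95.3 normalised reads in OV90CisR1 and 802 ± 89.9 in OV90CisR2, against 759 ± 136 in OV90 (SD, n = 3 each). None of its differences passed the threshold, an adjusted p of 0.05 by limma with Benjamini-Hochberg adjustment over 14233 genes. The log2 difference was -0.52 in OV90CisR1 against OV90 (limma adjusted p = 0.067), 0.09 in OV90CisR2 against OV90 (limma adjusted p = 0.845) and 0.61 in OV90CisR2 against OV90CisR1 (limma adjusted p = 0.052). The last passed without OV90 replicate 3 (limma adjusted p = 0.029), which enters the common estimate of the spread. DESeq2 on the recovered reads called the first and the last.

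The Ma antigens had lower values in both resistant lines, though PNMA1 did not pass the limma threshold in either line with all libraries. PNMA2 (Ma2; chromosome 8, 26504701 to 26513872) had 118, 111 and 84.3 normalised reads in OV90CisR1 and 142, 106 and 116 in OV90CisR2, against 311, 302 and 266 in OV90. All 6 resistant libraries lay below the lowest OV90 library, and the resistant lines overlapped each other. The means were 104 ± 17.8 in OV90CisR1, 121 ± 18.8 in OV90CisR2 and 293 ± 23.5 in OV90 (SD, n = 3 each), 2.80-fold lower in OV90CisR1 and 2.41-fold lower in OV90CisR2 than in OV90. The log2 differences from OV90 were -1.49 ± 0.19 in OV90CisR1 and -1.27 ± 0.19 in OV90CisR2. Leaving out each library in turn kept the first between -1.58 and -1.34 and the second between -1.39 and -1.18. OV90CisR2 differed from OV90CisR1 by 0.22 ± 0.19.

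PNMA1 (Ma1; chromosome 14, 73711783 to 73714384) had 608, 541 and 53.9 normalised reads in OV90CisR1 and 632, 335 and 651 in OV90CisR2, against 1274, 1070 and 852 in OV90. Every resistant library was below every OV90 library, and OV90CisR1 replicate 3 stood far below the rest. The means were 401 ± 303 in OV90CisR1, 540 ± 177 in OV90CisR2 and 1065 ± 211 in OV90 (SD, n = 3 each). The log2 difference from OV90 was -2.00 ± 0.72 in OV90CisR1 and -1.02 ± 0.72 in OV90CisR2. Without OV90CisR1 replicate 3 the OV90CisR1 value was -0.87, and the difference of OV90CisR2 from OV90CisR1 moved to -0.15, compared with 0.98 ± 0.72 with all libraries. The spread that this library adds is shared by both differences from OV90, since a single estimate was made for the 9 libraries.

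Relatives of the 8 genes were tested with all genes, of which 8.54% rose and 7.29% fell in OV90CisR1 against OV90, 2.35% rose and 0.941% fell in OV90CisR2 against OV90, and 5.16% were higher and 4.9% lower in OV90CisR2 than in OV90CisR1. Of the 14 genes of the PNMA family, 7 passed the filter. Among the 5 that are no members, ZCCHC12 was the only one past the threshold in any comparison. It averaged 33.3 ± 22.7 normalised reads in OV90CisR1 and 189 ± 43.2 in OV90CisR2, against 93.8 ± 14.6 in OV90 (SD, n = 3 each). It fell by 1.81 on the log2 scale in OV90CisR1 against OV90 (limma adjusted p = 0.040), a call that was lost, with adjusted p between 0.058 and 0.12, when any OV90 or any OV90CisR2 library was left out. OV90CisR1 replicate 3 was the lowest library, and without it the difference was -1.01 (limma adjusted p = 0.016). It was higher in OV90CisR2 than in OV90CisR1 by 2.80 (limma adjusted p = 0.0090; 0.051 without OV90CisR2 replicate 1). PNMA3, PNMA6A, MOAP1 and ZCCHC18 had differences from OV90 between -0.87 and 0.31, none past the threshold with all libraries. Without OV90 replicate 3, MOAP1 passed in both lines and ZCCHC18 in OV90CisR2.

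BEX1 (chromosome X, 103062651 to 103064171) was lower in OV90CisR1 than in both other groups. It had 64.0, 45.6 and 75.3 normalised reads in OV90CisR1 and 460, 508 and 456 in OV90CisR2, against 1062, 913 and 323 in OV90. OV90CisR1 lay below both other groups without overlap, and OV90 replicate 3 lay below the OV90CisR2 libraries. The means were 61.6 ± 15.0 in OV90CisR1, 474 ± 29.3 in OV90CisR2 and 766 ± 391 in OV90 (SD, n = 3 each), which is 12.4-fold lower in OV90CisR1 than in OV90. The log2 difference from OV90 was -3.47 ± 0.37 in OV90CisR1, position 8 from the lowest of 14233 genes, and -0.52 ± 0.37 in OV90CisR2. OV90CisR2 was higher than OV90CisR1 by 2.95 ± 0.37. Without OV90 replicate 3 the differences from OV90 were -4.01 in OV90CisR1 and -1.05 in OV90CisR2. Of 451 words of 50 bases in the last 500 bases of the BEX1 transcript, 26 (5.76%) also occur in a transcript of BEX2, so reads could be split between these 2 genes; the counting rule is not given in the sources used here.

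BEX and TCEAL genes, small related proteins, many of them encoded close together on chromosome X, numbered 14 on the list, and 9 besides BEX1 passed the filter. In OV90CisR1 against OV90, 0 of the 9 rose and 3 fell. TCEAL3 fell by 0.88 on the log2 scale (limma adjusted p = 0.042), TCEAL4 fell by 0.46 (limma adjusted p = 0.021) and TCEAL9 fell by 0.64 (limma adjusted p = 0.016). The median difference of the 9 was -0.64, beside -0.01 over all tested genes. In OV90CisR2 against OV90, TCEAL4 alone fell, by 0.62 (limma adjusted p = 0.012), and the median was -0.25, beside 0.00. BEX3 was higher in OV90CisR2 than in OV90CisR1 by 0.59 (limma adjusted p = 0.032), and no other of the 9 passed there. These calls depended on single libraries. TCEAL3 in OV90CisR1 lost its call, at adjusted p between 0.060 and 0.10, without any one of the OV90 or OV90CisR2 libraries, and its difference was -0.50 without OV90CisR1 replicate 3 (limma adjusted p = 0.026), the lowest library. TCEAL4 lost it in OV90CisR1 without OV90 replicate 1 or OV90CisR1 replicate 1 or 2 (0.057 to 0.068), and in OV90CisR2 without OV90 replicate 1 or OV90CisR2 replicate 1 or 3 (0.056 to 0.094). TCEAL9 lost it without OV90 replicate 1 or 2 (0.057 to 0.070), and BEX3 without any one OV90CisR2 library (0.088 to 0.12). BEX2 averaged 42.6 ± 15.8 normalised reads in OV90CisR1 and 45.5 ± 1.29 in OV90CisR2, against 110 ± 76.2 in OV90 (SD, n = 3 each). Its differences of -0.96 in OV90CisR1 and -0.81 in OV90CisR2 on the log2 scale did not pass (limma adjusted p = 0.29 in OV90CisR1 and 0.539 in OV90CisR2), and both passed without OV90 replicate 3 (limma adjusted p = 0.0029 in OV90CisR1 and 0.0066 in OV90CisR2).

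UCHL1 (chromosome 4, 41256928 to 41268455) was lower in OV90CisR1 than in either other group, as BEX1 was, over a smaller range. It had 1873, 1809 and 1834 normalised reads in OV90CisR1 and 3136, 3217 and 3194 in OV90CisR2, against 3763, 3542 and 2978 in OV90. OV90CisR1 lay below the other groups without overlap, and OV90CisR2 fell inside the range of OV90. The means were 1839 ± 32.04 in OV90CisR1, 3182 ± 42.1 in OV90CisR2 and 3428 ± 405 in OV90 (SD, n = 3 each). The log2 difference from OV90 was -0.89 ± 0.12 in OV90CisR1 and -0.10 ± 0.12 in OV90CisR2, and OV90CisR2 was higher than OV90CisR1 by 0.79 ± 0.12. Among the other ubiquitin C-terminal hydrolases, which include BAP1 and the proteasome-bound UCHL5, none of 3 passed the threshold against OV90 in either line with all libraries, and UCHL3 passed in OV90CisR2 without OV90CisR1 replicate 3. Their log2 differences lay between -0.30 and -0.06 in OV90CisR1 and between 0.07 and 0.67 in OV90CisR2. No gene of the 3 had an unadjusted p under 0.05 in OV90CisR1 and 1 had in OV90CisR2, edgeR called 0 in both, and DESeq2 called 0 in OV90CisR1 and 1 in OV90CisR2. UCHL3 was higher in OV90CisR2 than in OV90CisR1, at 155 ± 8.12 and 78.7 ± 10.4 normalised reads, by 0.97 on the log2 scale (limma adjusted p = 0.0064).

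STMN2 (chromosome 8, 79611117 to 79666158) had OV90 values far apart. It had 323, 293 and 375 normalised reads in OV90CisR1 and 71.6, 90.1 and 111 in OV90CisR2, against 756, 786 and 77.4 in OV90. OV90CisR2 lay below OV90CisR1 without overlap, and OV90 replicate 3 was as low as OV90CisR2. The means were 330 ± 41.7 in OV90CisR1, 90.9 ± 19.6 in OV90CisR2 and 540 ± 401 in OV90 (SD, n = 3 each). The log2 difference from OV90 was -0.13 ± 0.68 in OV90CisR1 and -1.99 ± 0.68 in OV90CisR2, and OV90CisR2 differed from OV90CisR1 by -1.87 ± 0.68. Without OV90 replicate 3 the differences from OV90 were -1.23 in OV90CisR1 and -3.09 in OV90CisR2, whereas without OV90 replicate 2 the OV90CisR1 value was 0.44. The direction in OV90CisR1 therefore depended on the libraries used.

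Of the other stathmins, STMN4 did not pass the filter and STMN1, the widely expressed member, and STMN3 did. STMN3 averaged 248 ± 31.98 normalised reads in OV90CisR1 and 132 ± 14.6 in OV90CisR2, against 109 ± 15.1 in OV90 (SD, n = 3 each). It rose by 1.18 on the log2 scale in OV90CisR1 against OV90 (limma adjusted p = 0.0026) and was lower in OV90CisR2 than in OV90CisR1 by a log2 difference of -0.90 (limma adjusted p = 0.011; 0.066 without OV90CisR2 replicate 1). STMN1 averaged 3906 ± 348 in OV90CisR1 and 6392 ± 229 in OV90CisR2, against 4244 ± 728 in OV90. It rose by 0.60 in OV90CisR2 against OV90 (limma adjusted p = 0.043), a call kept only without OV90 replicate 3 or OV90CisR1 replicate 3 and otherwise lost on leaving out a library (0.061 to 0.17). It was higher in OV90CisR2 than in OV90CisR1 by 0.71 (limma adjusted p = 0.011; 0.058 without OV90CisR2 replicate 3).

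**Figure D2:**
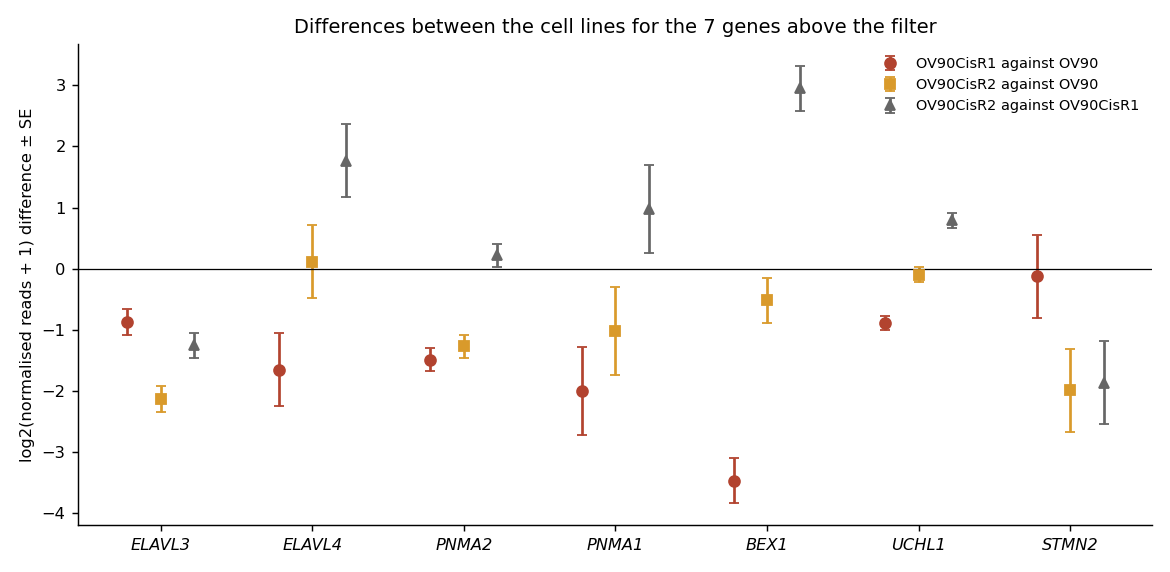
Log2 difference with its standard error for the 7 genes that passed the filter, in OV90CisR1 against OV90, OV90CisR2 against OV90 and OV90CisR2 against OV90CisR1, from values on the log2(value + 1) scale. BEX1 stood at -3.47 in OV90CisR1 against OV90 and at 2.95 in OV90CisR2 against OV90CisR1, and PNMA2 at -1.49 in OV90CisR1 and -1.27 in OV90CisR2 against OV90.

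Set beside each other, the 7 genes passed the limma threshold as follows. In OV90CisR1 against OV90, 4 were lower (ELAVL3, PNMA2, BEX1 and UCHL1) and 0 higher, where 7.29% of all tested genes were lower and 8.54% higher, 15.8% in all. In OV90CisR2 against OV90, 2 were lower (ELAVL3 and PNMA2) and 0 higher, where 0.941% of all genes were lower and 2.35% higher, 3.29% in all. In OV90CisR2 against OV90CisR1, ELAVL3 was lower and BEX1 and UCHL1 were higher, where 4.9% of all genes were lower and 5.16% higher, 10.1% in all. The genes were chosen from these contrasts, so nothing is read from these counts. The median log2 difference over the 7 genes was -1.49 in OV90CisR1 against OV90, beside -0.01 over all tested genes, and -1.02 in OV90CisR2 against OV90, beside 0.00. In OV90CisR2 against OV90CisR1 it was 0.79, beside 0.03. All libraries lay below those of OV90 for 5 of the 7 genes in OV90CisR1 (17.1% of all tested genes) and for 3 in OV90CisR2 (13.5%). In OV90CisR2, all libraries lay below those of OV90CisR1 for 2 of the 7 (18.2% of all tested genes) and above them for 3 (19.4%).

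**Figure D3:**
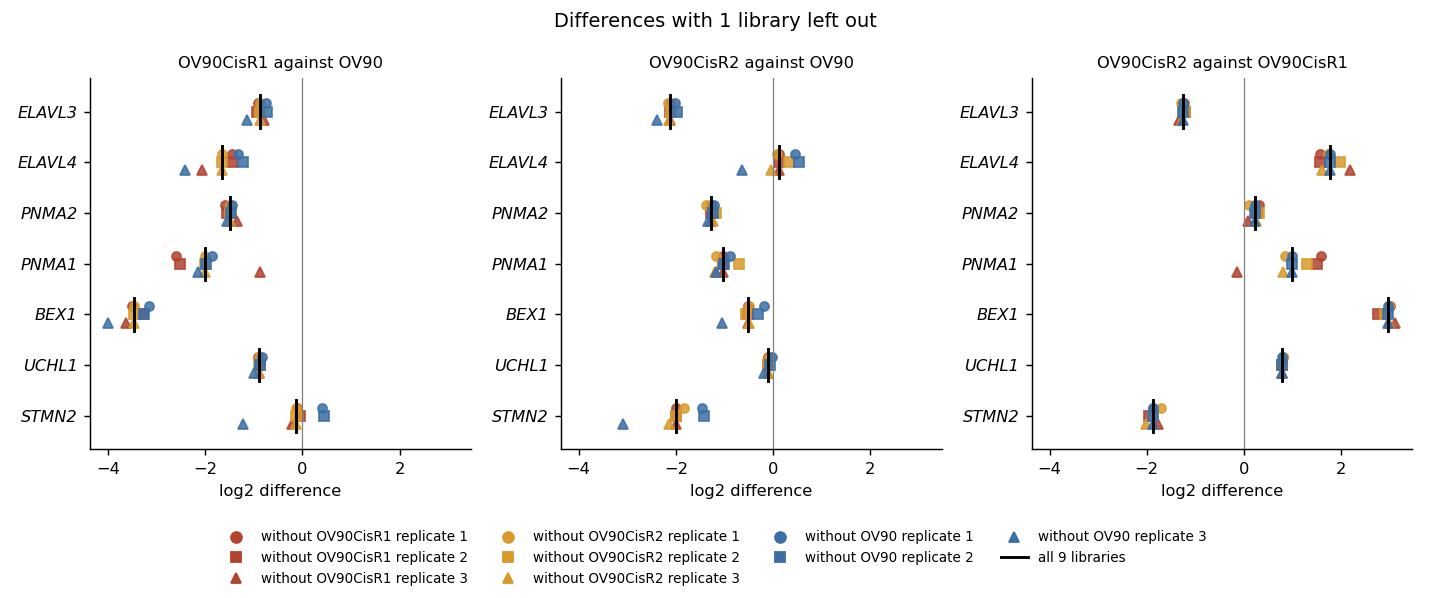
Log2 difference of the 7 genes with all libraries and with each library left out in turn, for the 3 comparisons. PNMA2 stayed between -1.58 and -1.34 in OV90CisR1 against OV90, whereas STMN2 moved between -1.23 and 0.44 there and between -3.09 and -1.43 in OV90CisR2 against OV90.

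PNMA2, BEX1 and UCHL1 kept their place past the threshold in OV90CisR1 against OV90 in all 23 alternative analyses, as ELAVL3 and PNMA2 did in OV90CisR2 against OV90 and ELAVL3, BEX1 and UCHL1 between the resistant lines. All these analyses reuse the libraries and contrasts from which the genes were chosen, so such calls describe the fits and are no support. ELAVL3 in OV90CisR1 lost it without OV90 replicate 1 (-0.75) or replicate 2 (-0.73) and in a fit on the 2 groups only. Without OV90 replicate 3, ELAVL4 and STMN2 passed the threshold in OV90CisR1 against OV90, and BEX1 and STMN2 passed it in OV90CisR2 against OV90. PNMA1 in OV90CisR1 passed without replicate 3 of that line (-0.87) and also without its replicate 1 (-2.61), and PNMA1 in OV90CisR2 against OV90 passed without OV90CisR1 replicate 3 (-1.02). ELAVL4 in OV90CisR1 passed without replicate 3 of that line too (-2.06). Between the resistant lines, ELAVL4 passed without OV90 replicate 3 (1.77) or OV90CisR1 replicate 3 (2.17) and STMN2 without OV90 replicate 3 (-1.87), a library that enters there through the spread alone. OV90 replicate 3 was below the other OV90 libraries for all 7 genes, with log2 differences between -3.30 for STMN2 and -0.20 for PNMA2, where the SD over all tested genes in that library was 0.73. What set this library apart was not tested.

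The profiles over the 9 libraries fell into different shapes. BEX1 and UCHL1 had a Pearson correlation of 0.99 on the log2(value + 1) scale, and ELAVL4 correlated with BEX1 at 0.87 and with UCHL1 at 0.83; these 3 were lowest in OV90CisR1. ELAVL3 and STMN2 correlated at 0.80 and were lowest in OV90CisR2. PNMA1 and PNMA2 correlated at 0.74, and ELAVL3 with PNMA2 at 0.71. The paralogs ELAVL3 and ELAVL4 had a correlation of 0.01, BEX1 and STMN2 of -0.02, and UCHL1 and STMN2 of -0.11. The libraries come from 3 groups and share group differences and whole-library shifts, so these 9 points are no independent sample and no p-value is given.

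Among tested genes with a mean above the median, those with the profile nearest to each gene were ranked by the same correlation, which ranks shape and says nothing of shared control. CLGN, a chaperone of the endoplasmic reticulum best known from testis, came first for BEX1 (0.99) and second for UCHL1 (0.99), with 106 normalised reads on average in OV90CisR1 and 324 in OV90CisR2, against 370 in OV90. CPNE2 and LAGE3 were also among the nearest 5 of both BEX1 and UCHL1, with MYLK for BEX1 and RAI14 for UCHL1. RASA1, a Ras GTPase-activating protein, came first for ELAVL3 (0.99), followed by RAB29, VPS35, AHNAK2 and HMGA1. For STMN2 the nearest were BTG1 (0.98), the fatty acid desaturase SCD, CRBN, NPC1 and SMIM29. The nearest of PNMA2 were HOXB-AS3 (0.97), SPRED1, CEP290, PURA and TPD52. For PNMA1 they were UBE2D1 (0.99), BTF3L4, EIF2D, TDP2 and ANXA4, and for ELAVL4 they were SHC1 (0.96), PDLIM5, DGCR6L, LITAF and LAMTOR2.

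With all libraries, no change of REST or of a cofactor on its list passed the threshold by limma. REST averaged 735 ± 48.9 normalised reads in OV90CisR1 and 682 ± 84.2 in OV90CisR2, against 799 ± 94.9 in OV90 (SD, n = 3 each), and its log2 differences from OV90 were -0.11 in OV90CisR1 (limma adjusted p = 0.595) and -0.23 in OV90CisR2 (limma adjusted p = 0.435). Of the 21 genes of the REST complex list, limma called 0 in each of the 3 comparisons. At an unadjusted p under 0.05 there were 4 in OV90CisR1 against OV90, 4 in OV90CisR2 against OV90 and 2 between the resistant lines. EdgeR called 1 in OV90CisR1 against OV90 and 0 in the other comparisons, and DESeq2 called 2 in OV90CisR1, 1 in OV90CisR2 and 0 between the lines. The differences ranged from -1.46 for RCOR2 to 0.82 for SMARCA4 in OV90CisR1, and from -0.50 to 0.77 for the same genes in OV90CisR2. RCOR2 had 149, 126 and 17.98 normalised reads in OV90CisR1, and without replicate 3 of that line its difference was -0.50. SMARCA4 passed the threshold in both lines without OV90 replicate 3, at 1.16 in OV90CisR1 and 1.11 in OV90CisR2, and single other libraries, left out, let SIN3B pass in OV90CisR1 and RCOR1 in OV90CisR2 against OV90, as RCOR1 did between the lines without OV90 replicate 3. The list's median difference was -0.01 in OV90CisR1 and 0.03 in OV90CisR2, beside -0.01 and 0.00 over all tested genes.

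**Figure D4:**
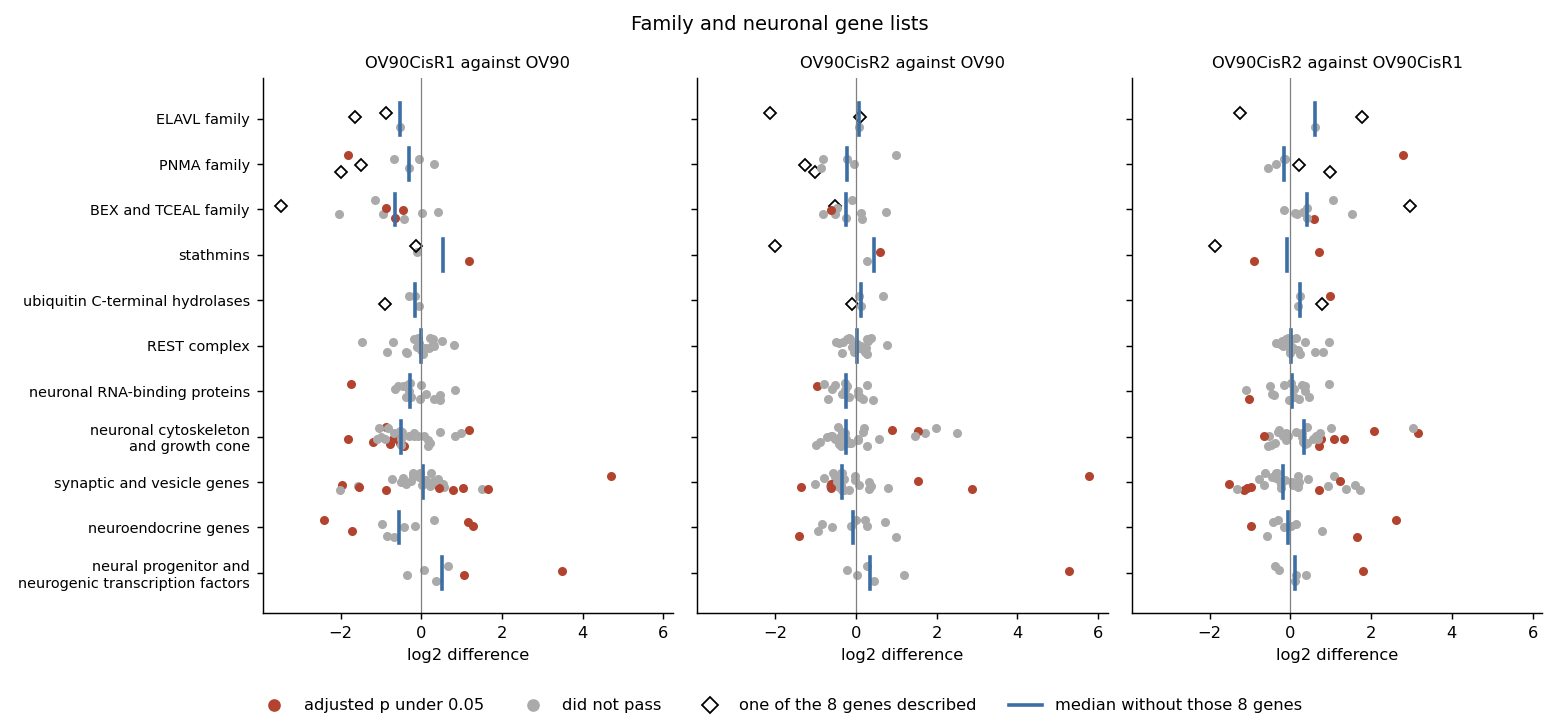
Log2 differences of the tested genes on the family, neuronal and REST complex lists (rows) in the 3 comparisons (panels); each point is a gene, red where it passed the limma threshold, open diamonds are members and the blue bar is the median without them. REST complex genes had no red point, while SNAP25 stood at 4.70 in OV90CisR1 and 5.78 in OV90CisR2, and SOX11 at 3.48 in OV90CisR1 and 5.29 in OV90CisR2, against OV90. The SNAP25 values rest on 2 reads in OV90 and depend on the pseudocount.

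Of 30 tested genes of the neuronal cytoskeleton and growth cone that are no members, 1 rose and 8 fell in OV90CisR1 against OV90, with a median of -0.51. FEZ1, an adaptor in axon outgrowth, fell by 1.81 on the log2 scale (limma adjusted p = 0.00045), MAP1B fell by 0.87 (limma adjusted p = 0.0018) and MAP6 fell by 1.20 (limma adjusted p = 0.032). MAP1A rose by 1.18 (limma adjusted p = 0.0043). In OV90CisR2 against OV90, 2 rose and 0 fell and the median was -0.25; DPYSL5 rose by 1.55 (limma adjusted p = 0.019) and MAP1A by 0.90 (limma adjusted p = 0.036). Between the resistant lines 6 were higher in OV90CisR2 and 1 lower, with a median of 0.34. FEZ1 averaged 79.6 ± 20.1 normalised reads in OV90CisR1 and 197 ± 6.35 in OV90CisR2, against 277 ± 37.3 in OV90 (SD, n = 3 each), the same order as BEX1 and UCHL1. MAP6 lost its call without any one OV90 library, OV90CisR1 replicate 1 or OV90CisR2 replicate 3 (adjusted p 0.051 to 0.11). DPYSL5 lost it in OV90CisR2 against OV90 without OV90 replicate 1 or 2 or any OV90CisR2 library (0.055 to 0.11). MAP1A lost it there without any library other than OV90 replicate 3 and OV90CisR1 replicate 3 (0.056 to 0.16).

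Of 30 tested synaptic and vesicle genes, 5 rose and 3 fell in OV90CisR1 against OV90, with a median of 0.05, and 3 rose and 3 fell in OV90CisR2 against OV90, with a median of -0.35. SNAP25, a synaptic SNARE protein, rose in both lines, opposite in sign to PNMA2 and ELAVL3. It averaged 37.0 ± 4.95 normalised reads in OV90CisR1 and 80.8 ± 22.6 in OV90CisR2, against 0.686 ± 1.19 in OV90, where it had 2 reads in all (limma adjusted p = 0.00020 in OV90CisR1 and 2.6e-05 in OV90CisR2). With so few reads in OV90 the fitted difference depends on the pseudocount: over 23 alternative analyses it lay between 2.90 and 7.05 in OV90CisR1 and between 3.90 and 8.15 in OV90CisR2, past the threshold in each. HOMER1, a postsynaptic scaffold, rose by 1.55 in OV90CisR2 against OV90 (limma adjusted p = 0.00010). NRXN3, a presynaptic adhesion protein, fell by 1.54 in OV90CisR1 (limma adjusted p = 0.0062) and by 1.35 in OV90CisR2 (limma adjusted p = 0.025; 0.057 to 0.12 without OV90 replicate 1 or 2 or any OV90CisR2 library). RAB3B fell by 0.88 in OV90CisR1 (limma adjusted p = 0.0054).

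Neuronal RNA-binding proteins outside the Hu family had 16 tested genes. KHDRBS3 fell in OV90CisR1 against OV90 by 1.73 (limma adjusted p = 0.0051), and NOVA2 fell in OV90CisR2 against OV90 by 0.96 (limma adjusted p = 0.019; 0.065 to 0.11 without OV90 replicate 1 or 2 or OV90CisR2 replicate 1 or 3). No other gene of the 16 passed in those comparisons, and the medians were -0.27 in OV90CisR1 and -0.25 in OV90CisR2. Of 10 tested neuroendocrine genes, SEZ6L2 and VGF rose in OV90CisR1, by 1.27 (limma adjusted p = 0.0013) and 1.15 (limma adjusted p = 0.010), and RTN1 and GCH1 fell. RTN1 fell by 2.40 (limma adjusted p = 0.011; 0.052 without OV90 replicate 1) and GCH1 by 1.71 (limma adjusted p = 0.022; 0.068 to 0.080 without OV90 replicate 1 or 2). ENO2, the neuron-specific enolase, fell by 1.42 in OV90CisR2 (limma adjusted p = 0.018; 0.067 to 0.092 without OV90 replicate 1 or 2 or any OV90CisR2 library). SOX11, a transcription factor of neural progenitors, averaged 47.0 ± 5.90 normalised reads in OV90CisR1 and 167 ± 26.6 in OV90CisR2, against 3.57 ± 2.06 in OV90 (SD, n = 3 each), and rose by 3.48 in OV90CisR1 (limma adjusted p = 0.00018) and by 5.29 in OV90CisR2 (limma adjusted p = 4.9e-06). Among 6 tested genes on the list of neural progenitor markers and neurogenic factors, SOX11 and the progenitor marker NES rose in OV90CisR1. NES rose by 1.06 (limma adjusted p = 0.040), a call lost (0.063 to 0.13) without any library other than OV90 replicate 3 and OV90CisR1 replicate 3. The neurogenic factor NEUROD1 and the young-neuron marker DCX had 0 reads in every library.

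Markers of other cell types that bulk cultures could hold were summed per library. Of 17 neuron markers, 14 passed the filter, 3 of them members, and DCX was at 0; the sum was between 3626 and 4325 normalised reads in OV90CisR1 and between 3459 and 3963 in OV90CisR2, against 4773 to 5533 in OV90, but members entered that sum. Without the members it was between 3025 and 3684 in OV90CisR1 and between 3236 and 3741 in OV90CisR2, against 3896 to 4331 in OV90, with TUBB3 as the most abundant marker. Of the 11 tested neuron markers that are no members, 1 rose and 2 fell in OV90CisR1 against OV90, with a median log2 difference of 0.24, and 1 rose and 0 fell in OV90CisR2 against OV90, with a median of -0.11. Of 8 glial markers, none passed the filter and OLIG2 was at 0; the sum was between 2.07 and 4.24 in OV90CisR1 and between 0 and 9.21 in OV90CisR2, against 2.70 to 5.14 in OV90. Of 7 leukocyte markers, CD68 passed and CD3E was at 0; the sum was between 78.7 and 139 in OV90CisR1 and between 34.1 and 47.1 in OV90CisR2, against 28.8 to 69.9 in OV90. Of 10 fibroblast and endothelial markers, 6 passed, and PECAM1 and VWF were at 0; the sum, mostly COL3A1, was between 5690 and 10941 in OV90CisR1 and between 3368 and 4853 in OV90CisR2, against 3089 to 3931 in OV90. In OV90CisR1 against OV90, 2 of the 6 rose and 1 fell. COL3A1 rose by 1.43 on the log2 scale (limma adjusted p = 0.0053), DCN rose by 1.08 (limma adjusted p = 0.022; 0.064 to 0.081 without OV90 replicate 1 or OV90CisR1 replicate 1 or 2) and ACTA2, with 8 reads in OV90CisR1, fell by 2.08 (limma adjusted p = 0.045). The ACTA2 call was lost without any library other than OV90CisR1 replicate 3 (0.069 to 0.10), and the difference was -1.32 without OV90CisR1 replicate 2. In OV90CisR2 against OV90, 2 rose and 0 fell, DCN by 2.51 (limma adjusted p = 0.00032) and LUM by 3.36 (limma adjusted p = 0.0047), both past the threshold in all 23 alternative analyses. Among neuroendocrine markers, 6 of 13 passed, and INSM1, NEUROD1, SCG5 and PCSK1 were at 0; the sum was between 671 and 889 in OV90CisR1 and between 713 and 811 in OV90CisR2, against 720 to 1153 in OV90. The part of these markers in the values of the 8 genes was not tested.

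Genes beside each of the 7 tested genes were examined next, the 3 nearest tested on each side. Of 42 such neighbours, 5 rose and 5 fell in OV90CisR1 against OV90, with a median of -0.07, and 2 rose and 3 fell in OV90CisR2 against OV90, with a median of -0.15. The 6 neighbours of PNMA2 had values below 0 against OV90 in both lines. BNIP3L, a mitophagy receptor 91.6 kb away, averaged 385 ± 23.7 normalised reads in OV90CisR1 and 385 ± 23.2 in OV90CisR2, against 649 ± 41.4 in OV90 (SD, n = 3 each). It fell by 0.75 on the log2 scale in each line (limma adjusted p = 0.0038 in OV90CisR1 and 0.0066 in OV90CisR2; 0.056 in OV90CisR2 without its replicate 1). DPYSL2 (CRMP2), a growth cone protein whose annotated limits lie 0.16 kb from those of PNMA2, fell by 0.77 in OV90CisR1 (limma adjusted p = 0.0082) and had a difference of -0.41 in OV90CisR2 (limma adjusted p = 0.173). In a wider window of 2 Mb on each side, chosen after these values had been seen, 21 tested genes had a median of -0.40 in OV90CisR1, with 2 that rose and 3 that fell, and of -0.23 in OV90CisR2, with 1 that rose and 2 that fell. Over all tested genes the median was -0.01 in OV90CisR1 and 0.00 in OV90CisR2. In OV90CisR1 against OV90 the same window had a median of -0.38 around STMN2, -0.31 around UCHL1 and -0.22 around ELAVL4. It was -0.17 around BEX1, 0.03 around PNMA1 and 0.21 around ELAVL3. In OV90CisR2 against OV90 these medians were, in the same order, -0.24, -0.06, -0.13, -0.001, -0.23 and 0.09.

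**Figure D5:**
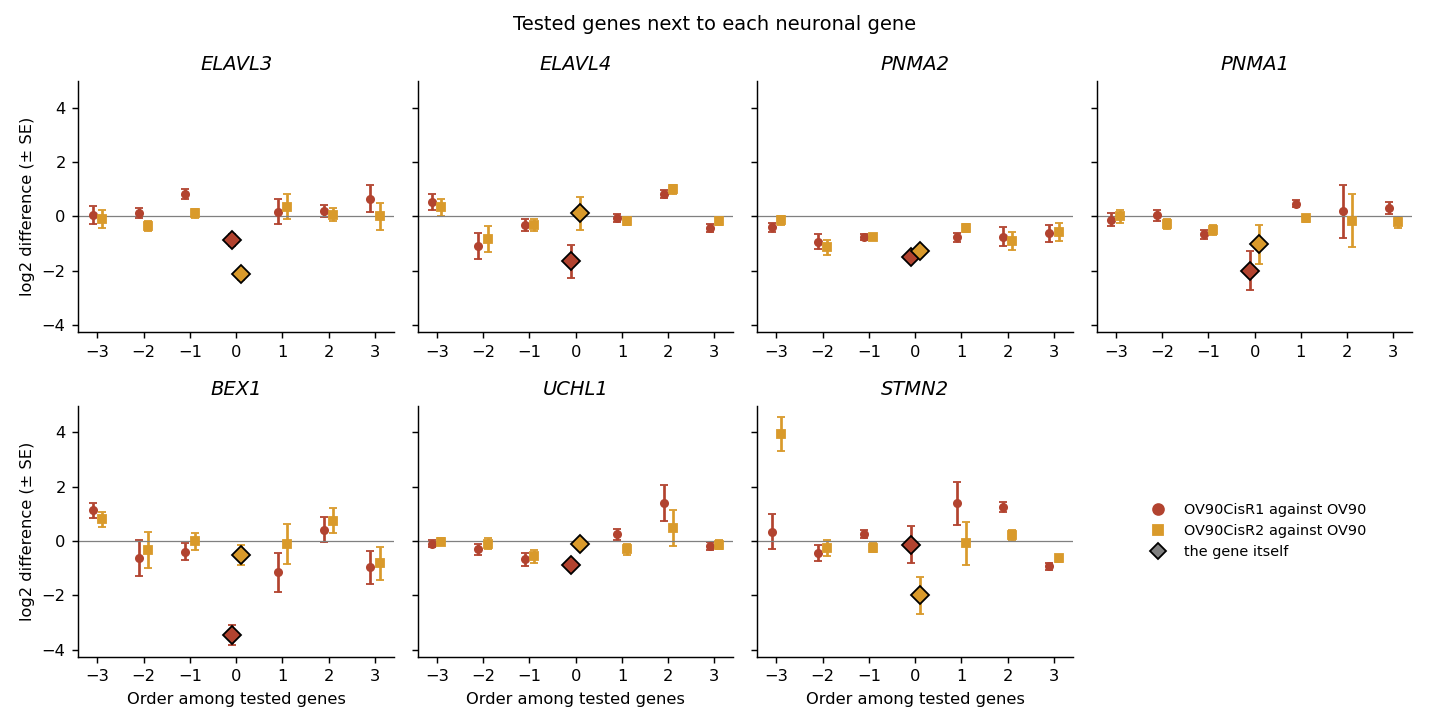
Log2 difference of each tested member (position 0) and of its 3 nearest tested genes on each side, by order along the chromosome, in OV90CisR1 against OV90 and OV90CisR2 against OV90. The 6 neighbours of PNMA2 lay below 0 in both comparisons, whereas PRKCSH beside ELAVL3 stood at 0.83 in OV90CisR1.

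The 6 neighbours of ELAVL3 had values above 0 in OV90CisR1 against OV90, between 0.04 and 0.83, where ELAVL3 itself stood at -0.87. In OV90CisR2 against OV90 the values of 3 lay above 0 and those of 3 below it. PRKCSH, a subunit of glucosidase II whose annotated end lies 0.36 kb from that of ELAVL3, rose by 0.83 in OV90CisR1 against OV90 (limma adjusted p = 0.013). In the 2 Mb window, also chosen after the neighbours had been seen, 11 of 102 tested genes rose there and 0 fell, at a median of 0.21. Over all tested genes 8.54% rose and 7.29% fell, at a median of -0.01. In OV90CisR2 against OV90, 1 of the 102 rose and 0 fell, at a median of 0.09, beside 0.00. The last 500 bases of the ELAVL3 transcripts were cut into words of 50 bases. Of these words, 14.02% also occur, read in the same direction, in another locus of the GENCODE annotation. Reads could therefore be split between ELAVL3 and that locus, and the counting rule is not given in the sources used here. Beside STMN2, HEY1, a Notch target gene, rose by 1.25 in OV90CisR1 (limma adjusted p = 0.0021), and TPD52 fell by 0.93 in OV90CisR1 (limma adjusted p = 0.0018) and by 0.63 in OV90CisR2 (limma adjusted p = 0.024; 0.072 to 0.12 without OV90 replicate 1 or 2 or any OV90CisR2 library). CDKN2C, a cyclin-dependent kinase inhibitor 757 kb from ELAVL4, rose by 0.83 in OV90CisR1 (limma adjusted p = 0.0071) and by 0.997 in OV90CisR2 (limma adjusted p = 0.0052).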

How the data were processed

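Libraries that read transcript 3' ends (QuantSeq, 75-base single-end reads, per the labels' protocols) were available for 9 samples in 3 groups. The authors deposited 1 table of normalised expression, a signal on the scale of reads, for 43424 gene symbols. Bowtie2, bedtools, edgeR and genome build GRCh38 are named by the submitters' processing notes; for versions, annotation, counting rule and strand nothing is given in the sources used here. In each deposited column 100% of values above 0 were whole multiples of a single step (tolerance 1e-06), so read counts could be recovered. Without molecular identifiers a read need not be its own molecule, and depth is therefore discussed for counting error alone.

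From there, log2(value + 1) of 14233 genes entered limma 3.58.1 (R 4.3.3; trended variance, 1 mean per group, all 9 libraries together). Benjamini-Hochberg adjustment of the p-values covered all of these genes, with a threshold of 0.05. Differences on the log2(value + 1) scale understate changes of genes with low values. The 8 genes and all lists were chosen with earlier results of these data known. Beyond the 8 genes, the text names all family relatives and REST complex genes by value or range, up to 3 rises and 3 falls for each other list and comparison, the 5 nearest profiles of each gene, and neighbours past the threshold; genes without a call and genes whose call depended on many libraries were in part left unnamed. A few genes covered by this rule are not reported here. Uniqueness of transcript ends was taken from GENCODE, and positions and windows from RefSeq. The procedure was tested on simulated counts in which no library stood apart from its group. That test therefore does not cover libraries such as OV90 replicate 3 and OV90CisR1 replicate 3.

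Alternatives were other pseudocounts (0.1 and 5), filters, quantile and TMM scaling, a fit restricted to the compared groups, a replicate block, robust and untrended variances, quality weights, each library left out in turn, OV90 replicate 3 and OV90CisR1 replicate 3 left out together, and count tests on the recovered reads with DESeq2 1.42.0 and edgeR 4.0.16 (quasi-likelihood).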

Additional observations from a re-analysis of the deposited data

Results flagged for a closer look

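The resistant lines differed from each other in genes named above or on the same lists, by the direct comparison of OV90CisR2 with OV90CisR1 (limma, adjusted p under 0.05 over all tested genes), and the genes reported are given here by their log2 difference, positive where OV90CisR2 was higher. Since OV90 is common to both lines, this is also the difference between their changes from OV90.

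Among relatives of the 8 genes, ZCCHC12 stood at 2.80, UCHL3 at 0.97, STMN1 at 0.71, BEX3 at 0.59 and STMN3 at -0.90. For the cytoskeleton the values were 3.17 for DCLK1, 2.08 for DPYSL5, 1.33 for FEZ1 and -0.66 for NEFH. Synaptic genes had 1.24 for HOMER1, 0.70 for RAB3B, -0.98 for SYP, -1.14 for CPLX1 and -1.53 for UNC13A. RTN1 stood at 2.62, CPE at 1.65 and SEZ6L2 at -0.99 among neuroendocrine genes, SOX11 at 1.81 among progenitor genes and CPEB1 at -1.02 among RNA-binding proteins.

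Among markers of other cell types, ACTA2 stood at 3.34, LUM at 2.75, DCN at 1.43, COL3A1 at -1.31 and CD68 at -1.42. Neighbours of the 8 genes had -0.55 for MIDEAS, -0.72 for PRKCSH and -1.02 for HEY1. CASC9 had a fitted difference of 3.58, with 15.1 normalised reads on average in OV90CisR2 and 0.354 in OV90CisR1; such a fitted value depends on the pseudocount.

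ACTA2, COL3A1, DPYSL5, FEZ1, HEY1, HOMER1, LUM, SEZ6L2 and UCHL3 passed with each library left out in turn, and each of the others was lost without at least 1 library. Without OV90CisR2 replicate 3 the limma adjusted p was 0.051 for CASC9, 0.055 for SOX11, 0.056 for RTN1 and 0.058 for STMN1. Without OV90CisR2 replicate 1 it was 0.051 for ZCCHC12, 0.052 for DCN, 0.066 for STMN3 and 0.077 for CPLX1. It lay between 0.052 and 0.066 for CPE and DCLK1 without OV90CisR2 replicate 1 or 3, between 0.058 and 0.085 for CPEB1 without OV90CisR2 replicate 2 or 3, and between 0.088 and 0.12 for BEX3 without any one OV90CisR2 library. MIDEAS, NEFH and RAB3B were lost without OV90CisR1 replicate 1 or any one OV90CisR2 library (0.053 to 0.13), and PRKCSH without OV90CisR1 replicate 1 or OV90CisR2 replicate 1 or 3 (0.087 to 0.13). CD68 was lost without OV90CisR1 replicate 1 or 2 or any one OV90CisR2 library (0.071 to 0.12), SYP without OV90CisR1 replicate 1 or 2 or OV90CisR2 replicate 1 or 3 (0.062 to 0.11), and UNC13A without any library other than OV90 replicates 1 and 3 (0.051 to 0.16).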

How the results depend on the processing

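Over the 7 tested genes, 472 of 483 alternative values kept their sign. Many of these alternatives could not move a difference, since they changed the spread alone or left out a library of the group not compared. The count therefore says little about stability. OV90CisR1 against OV90 had 2252 genes past the threshold, 771 in a fit on the compared groups only, 3901 when replicate 3 of both OV90 and OV90CisR1 was left out and 4220 with quality weights; leaving out 1 library gave 939 to 2467, and the members past it were 7 with quality weights and without both libraries, compared with 4 (3 to 6 leaving out 1 library). OV90CisR2 against OV90 had 468 genes, 3538 with quality weights, 3633 without both libraries, 878 by DESeq2 and 177 to 1312 leaving out 1 library; members were 5, 5 and, leaving out 1 library, 2 to 4, compared with 2. OV90CisR2 against OV90CisR1 had 1433 genes, 4226 with quality weights, 3750 without both libraries and 442 to 2327 leaving out 1 library; members were 5 with quality weights, without both libraries and on the compared groups only, and 3 to 5 leaving out 1 library, compared with 3. The share of calls that were higher in OV90CisR2 than in OV90 was 71.4%, and 54.4% with quality weights, 54.7% without both libraries and 60.6% by DESeq2. The sign turned for ELAVL1 in OV90CisR2 against OV90 (-0.044 without OV90 replicate 2, between -0.044 and 0.22 leaving out 1 library) and for BEX2 in OV90CisR2 against OV90CisR1 (-0.020 without OV90CisR1 replicate 1, between -0.020 and 0.43). The cause was not tested. With replicate numbers as a block, 1615 genes passed in OV90CisR1 against OV90, 287 in OV90CisR2 against OV90 (80.5% higher) and 875 between the resistant lines, and the member counts were unchanged. Same-numbered libraries did not deviate together (correlations between -0.31 and 0.09), so the numbers were not treated as pairs. Depth limits ELAVL2, which had 12 reads in all.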
